A study of Equus caballus with 2 samples.

Results

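The genes described here encode the proteases that cut the propeptides off fibrillar procollagens, and the enhancers of that cut, in equine endometrial fibroblasts with and without TGF-β1. They are 8 of the 21426 genes in the deposited counts and were found by symbol: the tolloid-type C-proteinases *BMP1*, *TLL1* and *TLL2*, the procollagen C-proteinase enhancers *PCOLCE* and *PCOLCE2*, and the procollagen N-proteinases *ADAMTS2*, *ADAMTS3* and *ADAMTS14*. *TLL1* was chosen by its log2 ratio of TGF-β1 over control in these libraries, and the others for their role beside it, so the differences between control and TGF-β1 are given as a description and support nothing beyond themselves.

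The fibroblasts came from abattoir endometria of mares that were healthy or only mildly fibrotic, and were grown on hydrogels with a collagen coat in serum-free medium during the treatment. Control cells received no supplement, and the TGF-β1 cells received human recombinant TGF-β1, 10 ng/ml, for 24 h. The cells of 4 mares were pooled within each treatment and loaded as 1 droplet library, in which transcripts are captured at their 3′ end and each captured molecule carries a unique molecular identifier (UMI). The MFGE8-treated cells of the study were not analysed here. With 1 library a group there is no replicate: no test was made, the preparation of a library and its treatment cannot be told apart, and all intervals are 95% intervals that cover counting error only. Cells were not assigned to mares here, so differences among cells and among mares cannot be told apart either.

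The study's limits for a usable cell were applied, a minimum of 20000 UMIs and of 3500 genes and a mitochondrial share of UMIs below 4%, which left 3865 control and 4513 TGF-β1 cells with medians of 50313 and 43142 UMIs. UMIs were summed over the kept cells of a library and scaled to counts per 1000000 UMIs (CPM). Shares of cells with a UMI were taken after each cell was thinned at random to 20000 UMIs, so that both libraries were compared at equal depth. The cells carried fibroblast markers, of which the least often detected was *PDGFRB*, in 75.2% of the control and 58.9% of the TGF-β1 cells. *EPCAM* had 1 and 3 UMIs, *PTPRC* 1 and 0 UMIs, and the 5 endothelial markers summed to 1.34 and 1.38 CPM. The monocyte-associated genes *CD68* and *CD14* were detected, in 56.9% and 24.7% of the control cells and 55.4% and 18.3% of the TGF-β1 cells, while *CD3E* and *LYZ* had at most 2 UMIs. Genes shared with smooth muscle, mostly *ACTA2*, summed to 4542 and 5853 CPM. The epithelial list differed, at 134 CPM in control and 12.3 CPM in TGF-β1 cells over the 6 of its 7 genes that were found, nearly all of it *KRT8* and *KRT7*. Values of *TLL1* in cells with and without *KRT8* are therefore given among the classes of cells. Of the kept cell barcodes, 2 occurred in both libraries.

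Fibrillar collagens are secreted as procollagens, with a propeptide at each end that keeps them soluble. Proteases of the BMP1/tolloid family remove the C-propeptide and members of the ADAMTS2 group remove the N-propeptide, after which the molecules can assemble into fibrils. Tolloid-type proteases also cut other matrix and signalling proteins, among them the lysyl oxidase precursor, which yields the collagen cross-linking enzyme, and chordin, an antagonist of bone morphogenetic proteins. In fibrosis of the endometrium, as in other fibroses, the deposition of fibrillar collagen is a defining change.

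*TLL1* (ENSECAG00000002251), which encodes tolloid-like 1, differed most. Summed over the kept cells it had 1049 control UMIs and 9630 TGF-β1 UMIs, or 4.98 CPM (4.69 to 5.29) against 43.8 CPM (43.0 to 44.7). The ratio of TGF-β1 over control was 8.79-fold, a log2 ratio of 3.14 (3.04 to 3.23). This was rank 23 from the top among the 12116 genes whose mean CPM over both libraries was 1 or more.

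The share of cells in which *TLL1* was seen differed with it. After thinning, 220 control cells had a UMI, 5.69% (4.98% to 6.47%), against 1545 TGF-β1 cells, 34.2% (32.8% to 35.6%). Among cells with a UMI, the mean number of *TLL1* UMIs was 1.65 in control and 2.45 in TGF-β1 cells, so that both the share of cells and the number of UMIs per detected cell were higher in the TGF-β1 library. No cell type that should lack these transcripts was present in the cultures, so the share that free RNA could give was not measured.

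*BMP1* (ENSECAG00000021675) encodes the family's founding C-proteinase. It had 78.1 CPM in control and 106.6 CPM in TGF-β1 cells, a log2 ratio of 0.45 (0.42 to 0.48), and was seen in 75.5% and 86.2% of thinned cells. *TLL2* (ENSECAG00000014145), tolloid-like 2, was sparse, with 389 and 522 UMIs in all, 1.85 and 2.38 CPM, and a log2 ratio of 0.36 (0.17 to 0.56). A UMI was seen in 3.13% of the control and 4.52% of the TGF-β1 cells.

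All 3 tolloid-type genes were thus higher in the TGF-β1 library, *TLL1* by far the most. Their summed level was 85.0 CPM in control and 152.8 CPM in TGF-β1 cells, a log2 ratio of 0.85 (0.82 to 0.87). *TLL1* supplied 5.87% of the UMIs of the 3 genes in control cells and 28.7% in TGF-β1 cells, and *BMP1* 92.0% and 69.8%. Capture at the 3′ end can differ between genes, so these shares compare libraries and do not rank the genes. At least 1 of the 3 was seen in 77.3% of the control and 90.9% of the TGF-β1 cells.

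The enhancers, glycoproteins that bind procollagen and speed its C-terminal cleavage, differed in opposite directions. *PCOLCE* (ENSECAG00000021766) had 352 CPM in control and 224 CPM in TGF-β1 cells, a log2 ratio of -0.65 (-0.67 to -0.64), and was seen in 99.1% and 96.7% of cells. *PCOLCE2* (ENSECAG00000020485) had 36.8 and 63.3 CPM, 1.72-fold higher after TGF-β1, with a log2 ratio of 0.79 (0.74 to 0.83), and was seen in 49.5% and 68.7% of cells. *PCOLCE* was lower and *PCOLCE2* higher in the TGF-β1 library, and their sum was lower, at 389 against 287 CPM.

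The N-proteinases also divided. *ADAMTS2* (ENSECAG00000016328), the enzyme whose loss causes dermatosparaxis in cattle, had 69.2 CPM in control and 55.9 CPM in TGF-β1 cells, a log2 ratio of -0.31 (-0.34 to -0.27), and was seen in 66.8% and 59.8% of cells. *ADAMTS3* (ENSECAG00000019061), which also cuts the precursor of the lymphatic growth factor VEGF-C, had 38.9 and 55.4 CPM, a log2 ratio of 0.51 (0.47 to 0.55), and was seen in 39.2% and 48.5% of cells. *ADAMTS14* (ENSECAG00000014713), the third of the group, had 172 and 288 UMIs, 0.817 and 1.31 CPM, and a log2 ratio of 0.68 (0.40 to 0.96).

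*ADAMTS2* was thus lower and the other two were higher after TGF-β1, and their summed level was nearly level, at 108.95 and 112.6 CPM, a log2 ratio of 0.05 (0.02 to 0.07). At least 1 of the 3 was seen in 79.1% of the control and 79.3% of the TGF-β1 cells. *ADAMTS3* supplied 35.7% of their UMIs in control and 49.2% in TGF-β1 cells.

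**Figure D1:**
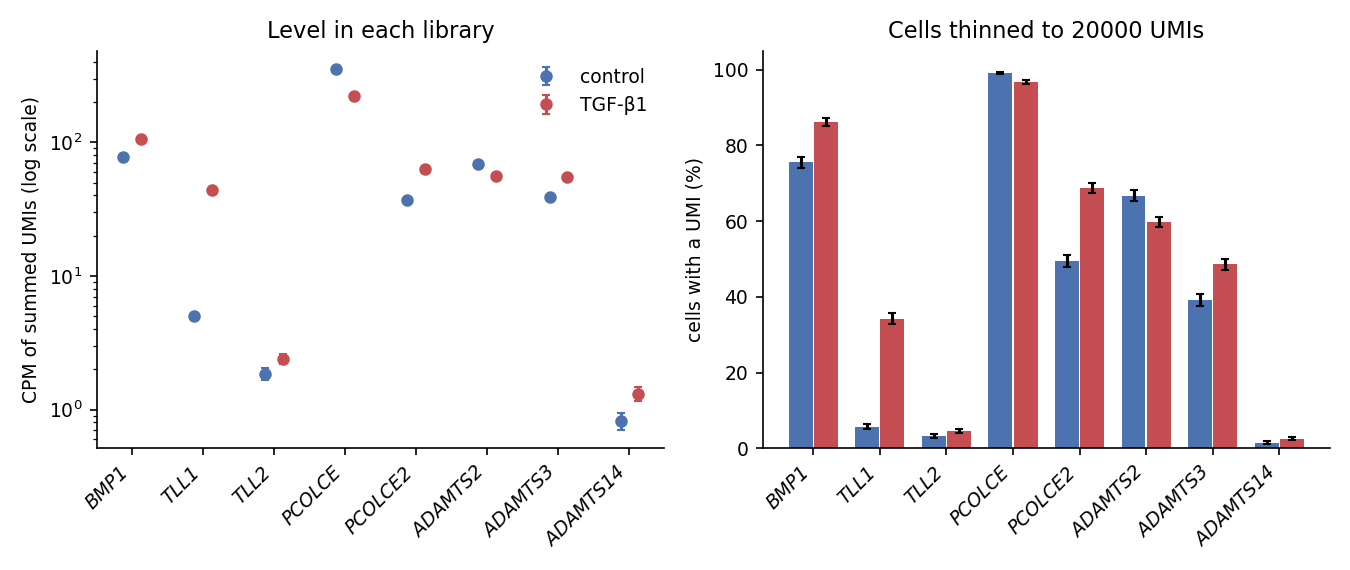
Level and detection of the 8 genes in the control (blue) and TGF-β1 (red) library. Left, CPM of the UMIs summed over kept cells, on a log axis, with exact Poisson 95% intervals, most of them smaller than the points; right, percent of cells with a UMI after thinning to 20000 UMIs, with exact binomial 95% intervals. *TLL1* went from 4.98 to 43.8 CPM and from 5.69% to 34.2% of cells, and *PCOLCE* and *ADAMTS2* were the genes that were lower in the TGF-β1 library.

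All 8 genes reached a mean of 1 CPM, *ADAMTS14* just so, at 1.06. Past 2-fold, 1 of the 8 was higher after TGF-β1 and 0 were lower. Over all 12116 genes at that level, 3.45% were higher past 2-fold, 3.46% lower and 6.91% either. In direction, 6 of the 8 were higher and 2 lower, with a median log2 ratio of 0.48 beside -0.01 over all genes. Since *TLL1* was chosen for its size of difference, nothing is read from these counts.

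The *TLL1* transcripts were unevenly spread over cells. In the thinned TGF-β1 library, 768 cells had 1 *TLL1* UMI, 321 had 2 UMIs, and 456 cells, 10.1% of all, had 3 or more, up to 30. Those 456 cells held 62.8% of the *TLL1* UMIs. In the thinned control library, 147 cells had 1, 48 had 2 and 25 cells, 0.647%, had 3 or more, up to 18.

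Had the same UMIs been spread evenly over cells, with Poisson counting only, 56.8% of the TGF-β1 cells would have had one, against the 34.2% observed. The variance of the *TLL1* UMIs per cell was 4.54 times their mean in the TGF-β1 library and 3.22 times in control. Among 7566 genes with at least 10 CPM in the TGF-β1 library, the median of this ratio was 1.14, and 129 genes, 1.71%, had a higher one than *TLL1*.

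Of the other members, *ADAMTS3* was the next most uneven in the TGF-β1 library, with a variance of 2.97 times the mean. It was seen in 48.5% of the TGF-β1 cells where an even spread gives 65.9%. *BMP1* lay close to an even spread, with a ratio of 1.15 and 86.2% of cells against 87.7%. *PCOLCE2* had a ratio of 1.18, *ADAMTS2* 1.42 and *PCOLCE* 1.95. The most uneven of the 8 in that library were therefore a C-proteinase and an N-proteinase.

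**Figure D2:**
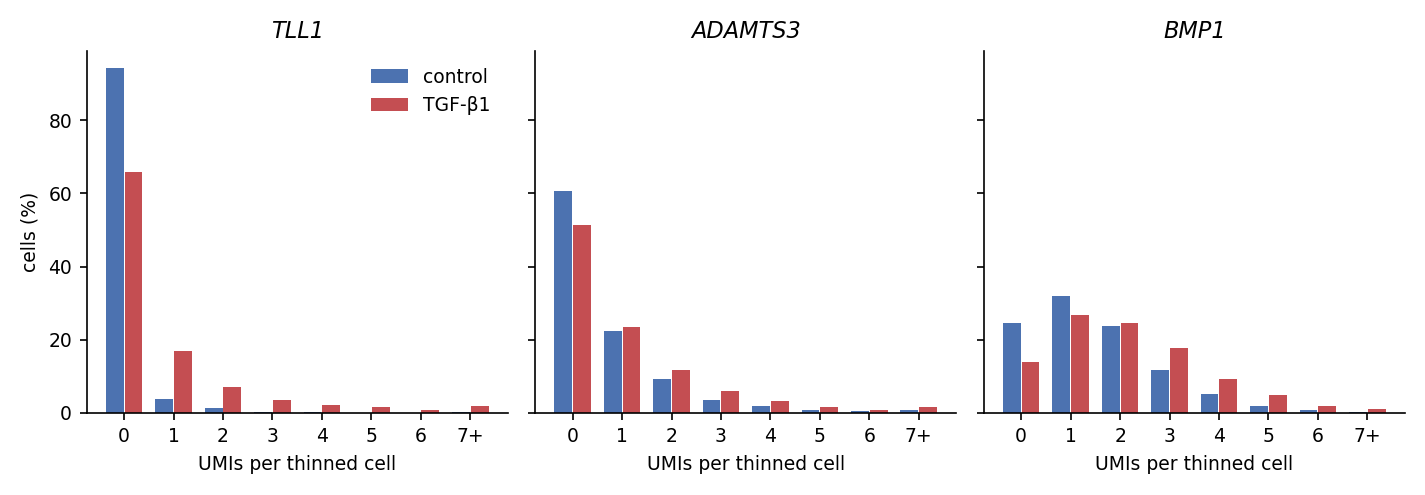
Percent of cells by their number of UMIs of *TLL1*, *ADAMTS3* and *BMP1* after thinning to 20000 UMIs, in the control (blue, 3865 cells) and TGF-β1 (red, 4513 cells) library; the last class holds 7 or more UMIs. *TLL1* was undetected in most cells of both libraries but reached 3 or more UMIs in 10.1% of the TGF-β1 cells, while *BMP1* was spread over most cells.

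The proteases were next read in the same cells. *TLL1* and *BMP1* were seen together in 4.68% of control cells (4.04% to 5.40%) and in 29.8% of the TGF-β1 cells (28.5% to 31.2%). *TLL1* without *BMP1* was seen in 1.01% and 4.43%, *BMP1* without *TLL1* in 70.9% and 56.4%, and neither in 23.4% and 9.40%. Most cells with *TLL1* thus also had a *BMP1* UMI. The number of cells with both was near the product of their separate shares, 1.09 times it in control (0.94 to 1.26) and 1.01 times in TGF-β1 cells (0.97 to 1.06). This interval counts the cells with both genes and takes the product as fixed. It is wider than independence with both shares held would give.

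Of the 28 pairs among the 8 genes, 1 pair, *TLL1* with *ADAMTS3*, had an interval of this ratio that lay above 1, in both libraries. Not every pair could show this: the pairs of *PCOLCE*, seen in nearly all cells, can hardly exceed 1, and 15 pairs in control and 20 in the TGF-β1 library had 100 or more cells expected. The intervals are also wide, so one that holds 1 does not show that a pair was independent. *TLL1* and *ADAMTS3* were both seen in 110 control cells where independence gives 86.3, a ratio of 1.27 (1.05 to 1.53), and in 853 TGF-β1 cells where it gives 750, a ratio of 1.14 (1.07 to 1.21). *ADAMTS3* was seen in 55.2% of the TGF-β1 cells with *TLL1* and 45.1% without, and in 110 of the 220 control cells with *TLL1* and 38.6% of those without. Its level was 65.1 CPM with *TLL1* and 47.8 CPM without in the TGF-β1 library, and 60.7 and 35.6 CPM in control.

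Cells with *TLL1* had somewhat more UMIs before thinning, with medians of 44646 against 42371 in the TGF-β1 library and 52073 against 50120 in control. When the TGF-β1 cells were ranked by UMI total and divided into 4 groups of equal size, the *TLL1* and *ADAMTS3* ratio was between 1.07 and 1.19, and the interval lay above 1 in the lowest group. Within 4 groups ranked by contractile transcripts, defined with the classes of cells, it was between 1.07 and 1.17, with 1 inside each interval. In control, the same ratio was between 1.07 and 1.63 by UMI total, with an interval of 1.11 to 2.30 in the third group, and between 1.21 and 1.36 by contractile transcripts. These splits were chosen after the ratio of all cells had been seen. The interval held 1 in all contractile groups of both libraries and in 3 of the 4 groups by UMI total of each library. The ratio was above 1 in every group, and these wide intervals do not show independence within a group.

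*PCOLCE* went the other way at the level of expression, with 216 CPM in TGF-β1 cells with *TLL1* and 236 CPM in those without, and 311 and 366 CPM in control cells. *BMP1*, *PCOLCE2* and *ADAMTS2* differed little with *TLL1* in the TGF-β1 library, with log2 ratios of 0.05 (-0.01 to 0.12), 0.03 (-0.05 to 0.11) and 0.03 (-0.06 to 0.11). In control their log2 ratios were 0.16 (0.01 to 0.31), 0.00 (-0.24 to 0.23) and -0.18 (-0.37 to -0.0011), and the intervals of *BMP1* and *ADAMTS2* just left out 0. In TGF-β1 cells with 3 or more *TLL1* UMIs, *ADAMTS3* had 69.8 CPM, against 69.8 CPM in cells with 2, 60.4 CPM in cells with 1 and 47.8 CPM in cells with 0. *PCOLCE* had 190 CPM in these cells against 232, 225 and 236 CPM. *ADAMTS3* was thus higher from the first *TLL1* UMI on, and *PCOLCE* was lowest in the cells with most *TLL1*, in the TGF-β1 library. In control, *PCOLCE* had 342 CPM (293 to 397) in the 25 cells with 3 or more *TLL1* UMIs, 296 CPM with 2, 311 CPM with 1 and 366 CPM with 0, and so was not lowest in the cells with most. No cell had UMIs of all 8 genes at this depth. The median cell had UMIs of 3 of them in control and 4 in the TGF-β1 library.

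*TLL1* was then compared within classes of cells set by genes other than these 8. A class is a range of cells, not a cell type. The classes were cells with 3 or more of 11 cycling markers or fewer, cells with or without a UMI of *KRT8*, *VCAM1*, *CFD*, *IGFBP3* or *AREG*, 4 groups of equal size in each library ranked by UMIs of the contractile genes *ACTA2*, *TAGLN*, *CNN1*, *MYL9* and *TPM2*, and 4 groups ranked by UMI total. These classes overlap, since the same cells are divided in several ways. A ratio could be taken in 19 of the 20 classes, and in each of these *TLL1* was more than 2-fold higher in the TGF-β1 library, by 5.03- to 14.8-fold. The exception was the class with *VCAM1*, which held 1 TGF-β1 cell.

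Cells with 3 or more cycling markers numbered 100 in control and 110 in the TGF-β1 library, with *TLL1* at 4.00 CPM (1.73 to 7.88) and 59.1 CPM (49.4 to 70.2). In cells with a *KRT8* UMI, 986 in control and 159 in the TGF-β1 library, *TLL1* had 2.89 and 23.9 CPM. In cells without one it had 5.31 and 42.7 CPM. The log2 ratio was 3.05 with *KRT8* and 3.01 without, and *TLL1* was lower in cells with *KRT8* in each library. *KRT8* itself differed between the libraries, at 114 and 4.48 CPM, and its part in the *TLL1* difference was not tested beyond these values. Cells with and without *IGFBP3*, itself far higher after TGF-β1, had 44.8 and 40.2 CPM of *TLL1* in the TGF-β1 library and 7.44 and 4.53 CPM in control.

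**Figure D3:**
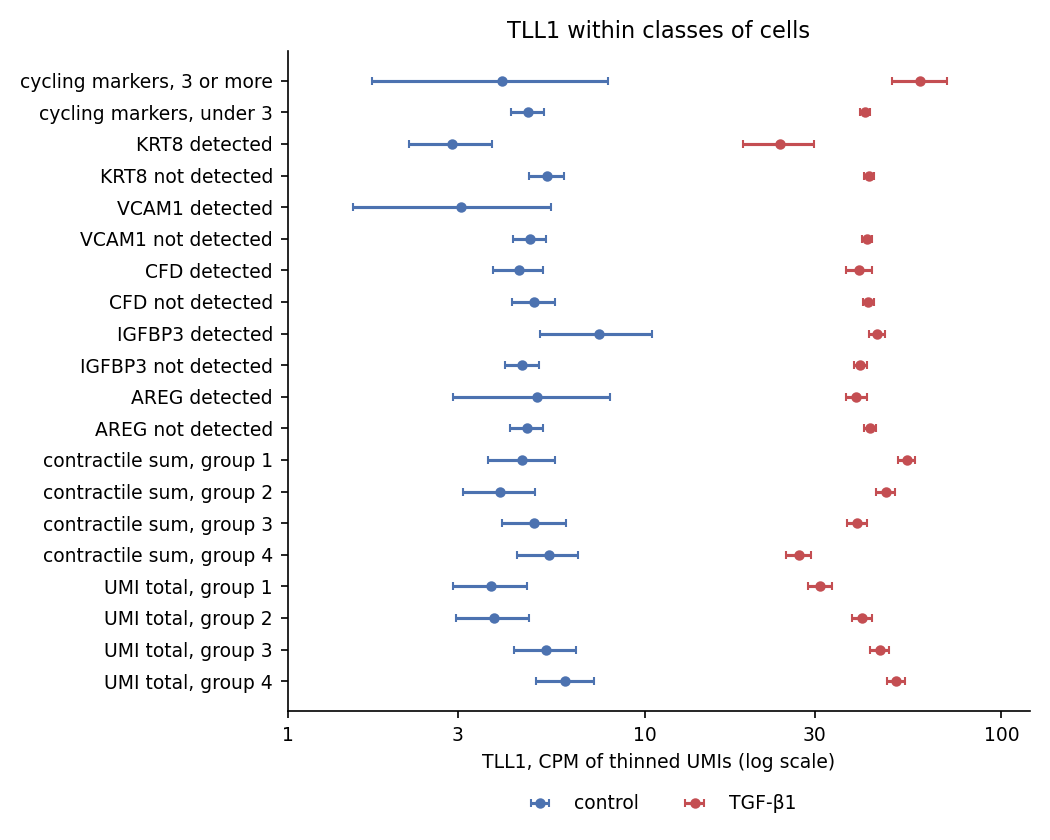
*TLL1* level (CPM of thinned UMIs, log axis) in 20 classes of cells of the control (blue) and TGF-β1 (red) library, with exact Poisson 95% intervals; classes are not exclusive of one another, and no TGF-β1 value is drawn for *VCAM1*-detected cells, of which there was 1. Control values lay between 2.89 and 7.44 CPM and TGF-β1 values between 23.9 and 59.1 CPM, without overlap.

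The level of *TLL1* after TGF-β1 differed along the contractile genes, which mark myofibroblast-like cells. From the group of TGF-β1 cells with the fewest contractile UMIs to the group with the most, *TLL1* had 54.2 CPM (51.2 to 57.3), 47.4 CPM (44.6 to 50.3), 39.4 CPM (36.8 to 42.0) and 27.1 CPM (24.98 to 29.3). The corresponding control groups had 4.55, 3.93, 4.92 and 5.38 CPM, with overlapping intervals. *TLL1* was therefore lower in more contractile TGF-β1 cells, and no such order was seen in control. The groups were cut within each library, at higher contractile counts in the TGF-β1 library, where their medians ran from 192 to 460.5 UMIs per 20000, than in control, where they ran from 71 to 405.

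*ADAMTS3* had a similar order in the TGF-β1 library, with 81.0, 57.8, 45.5 and 30.7 CPM over the same groups. In control cells it had 39.3, 44.2, 36.8 and 27.8 CPM. Between the libraries its log2 ratio was 1.04 (0.92 to 1.17) in the least contractile group, 0.39 (0.26 to 0.51) and 0.31 (0.17 to 0.45) in the next, and 0.14 (-0.02 to 0.31) in the most contractile one. These ratios compare groups of equal rank and not of equal contractile counts. The third TGF-β1 group, of 307 to 389 contractile UMIs, had 45.5 CPM of *ADAMTS3*, and the fourth control group, of 317 to 1173, had 27.8 CPM.

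*PCOLCE* had the opposite order after TGF-β1, with 197, 211, 237 and 274 CPM, while its control groups had 383, 350, 347 and 373 CPM. *BMP1* had 113.2, 108.9, 102.0 and 94.8 CPM over the TGF-β1 groups. Over the control groups it had 75.3, 76.6, 78.9 and 70.9 CPM, with no steady fall. *ADAMTS2* went from 59.9 to 43.8 CPM after TGF-β1 and from 71.5 to 52.2 CPM in control, with a log2 ratio between -0.33 and -0.25 in every group, so its order was alike in both libraries. *PCOLCE2* had 66.7, 59.4, 67.9 and 60.3 CPM over the TGF-β1 groups, with no order. The median UMI total before thinning was between 41338 and 44593 in the TGF-β1 groups, but rose from 43810 to 54889 over the control groups, so depth and contractile transcripts moved together in control. *TLL1* also differed with that total, from 31.0 CPM in the group of TGF-β1 cells with the fewest UMIs to 50.6 CPM in the group with the most, and from 3.72 to 6.004 CPM in control. *ADAMTS3* went from 29.7 to 47.4 CPM over the control groups by UMI total. *PCOLCE* fell with that total, from 409 to 321 CPM in control and from 256 to 208 CPM in the TGF-β1 library. The part of cell size or RNA content in these values was not tested.

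**Figure D4:**
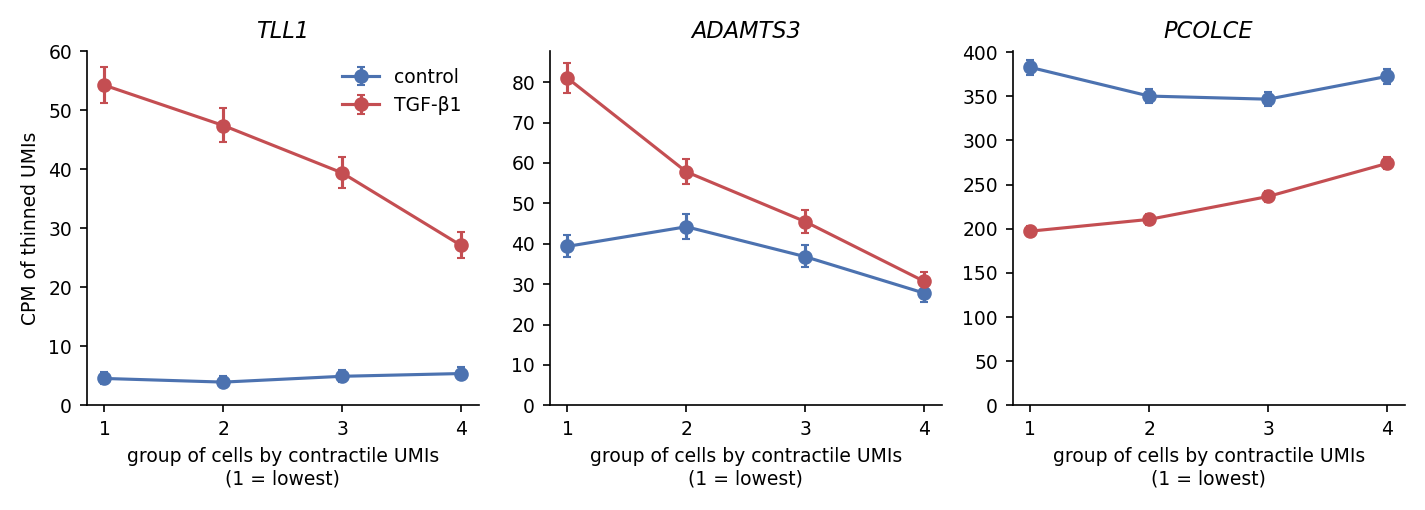
CPM of *TLL1*, *ADAMTS3* and *PCOLCE* in 4 groups of equal size of the control (blue) and TGF-β1 (red) cells, ordered from fewest (1) to most (4) UMIs of *ACTA2*, *TAGLN*, *CNN1*, *MYL9* and *TPM2*; bars are exact Poisson 95% intervals and each y axis starts at 0. In the TGF-β1 library *TLL1* went from 54.2 to 27.1 CPM and *ADAMTS3* from 81.0 to 30.7 CPM, and *PCOLCE* from 197 to 274 CPM.

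Other genes of the pathway were read as 7 lists with 43 genes, of which 42 were found by symbol and 33 reached a mean of 1 CPM. In the TGF-β1 library 5 of the 33 were higher by more than 2-fold and 4 lower by as much, beside 3.45% and 3.46% of all 12116 genes. Their median log2 ratio was 0.18, beside -0.01 over all genes. The lists are small and were chosen with results known, so their counts are a description.

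Among 9 procollagen genes at this level, 8 were higher after TGF-β1 and 1 lower, 1 of each by more than 2-fold, with a median log2 ratio of 0.25. Over all genes at this level, 5897 were higher and 6219 lower, 418 and 419 of them by more than 2-fold. The major chains differed little: *COL1A1* had 5608 and 6376 CPM, and *COL3A1* 4456 and 5583 CPM, a log2 ratio of 0.33. *COL5A1*, a chain of the collagen that starts and limits fibrils, had 270 and 402 CPM. *COL24A1*, a minor fibrillar collagen, had 1.95 and 9.84 CPM, a log2 ratio of 2.33 (2.18 to 2.49), and *COL5A3* had 3.09 and 0.947 CPM, a log2 ratio of -1.71 (-1.94 to -1.48). In control cells *COL24A1* also differed with *TLL1*, at 7.27 CPM in cells with *TLL1* and 1.93 CPM in cells without. This log2 ratio of 1.91 (1.31 to 2.47) rests on 32 UMIs in the cells with *TLL1*. In TGF-β1 cells it had 12.7 and 9.55 CPM. By the number of *TLL1* UMIs in these cells it had 9.05 CPM (7.61 to 10.7) with 1, 12.5 CPM with 2 and 19.1 CPM (16.3 to 22.1) with 3 or more, against the 9.55 CPM of cells without.

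Of 14 other substrates of the tolloid-type proteases, 9 were higher and 5 lower after TGF-β1, 3 and 2 of them by more than 2-fold, beside the 3.45% and 3.46% of all genes, with a median log2 ratio of 0.18. *IGFBP3*, a carrier of insulin-like growth factors, had 3.69 and 108.2 CPM, a log2 ratio of 4.87 (4.77 to 4.98). *LTBP1*, which holds latent TGF-β in the matrix, had 134 and 353 CPM. *LOX*, the lysyl oxidase, had 68.6 and 179 CPM. *CHRD*, chordin, was the lowest in ratio, with 7.097 and 1.47 CPM, a log2 ratio of -2.27 (-2.45 to -2.10), and the co-receptor gene *TGFBR3* had 7.85 and 1.88 CPM. The substrates therefore differed in both directions, *CHRD* and *TGFBR3* opposite to *TLL1*.

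Within the TGF-β1 library, *IGFBP3* had 136 CPM in cells with *TLL1* and 93.0 CPM in cells without, and *LTBP1* 368 and 315 CPM. *LOX* had 178 and 168 CPM. Substrates went the other way too: *BGN* had 982 and 1017 CPM, a log2 ratio of -0.05 (-0.07 to -0.03). *LAMA3* had 12.0 and 14.4 CPM, a log2 ratio of -0.26 (-0.44 to -0.08). Substrates not named here differed in either direction. By the number of *TLL1* UMIs, *IGFBP3* had 132 CPM with 1, 162 CPM with 2 and 124 CPM with 3 or more, so it did not rise steadily.

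The convertases that activate tolloid-type and ADAMTS precursors were all below 2-fold. *FURIN* had 14.2 and 19.4 CPM, a log2 ratio of 0.45 (0.38 to 0.52), *PCSK5* 220 and 197 CPM, and *PCSK6* and *PCSK7* had log2 ratios of 0.00 (-0.21 to 0.21) and 0.04 (-0.08 to 0.16). The inhibitor *TIMP3* had 31.8 and 24.0 CPM, a log2 ratio of -0.41, while *A2M* had 4 and 3 UMIs in all. Of the scaffolds and modulators, *FN1*, fibronectin, had 1934 and 6087 CPM, a log2 ratio of 1.65, and *SFRP2*, a secreted modulator of C-proteinase activity, 4.34 and 1.15 CPM, a log2 ratio of -1.92 (-2.13 to -1.72). *TWSG1*, a chordin partner, had 99.4 and 88.3 CPM, and *POSTN*, periostin, which binds BMP1, had 16 and 54 UMIs in all.

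The meprins *MEP1A* and *MEP1B*, other proteases that can cut procollagen propeptides, had at most 2 UMIs in either library. *CCBE1*, the cofactor of *ADAMTS3* in the activation of VEGF-C, had 373 and 207 CPM, a log2 ratio of -0.85, and *VEGFC* had 152 and 87.2 CPM, a log2 ratio of -0.80. Both were lower after TGF-β1, where *ADAMTS3* was higher.

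**Figure D5:**
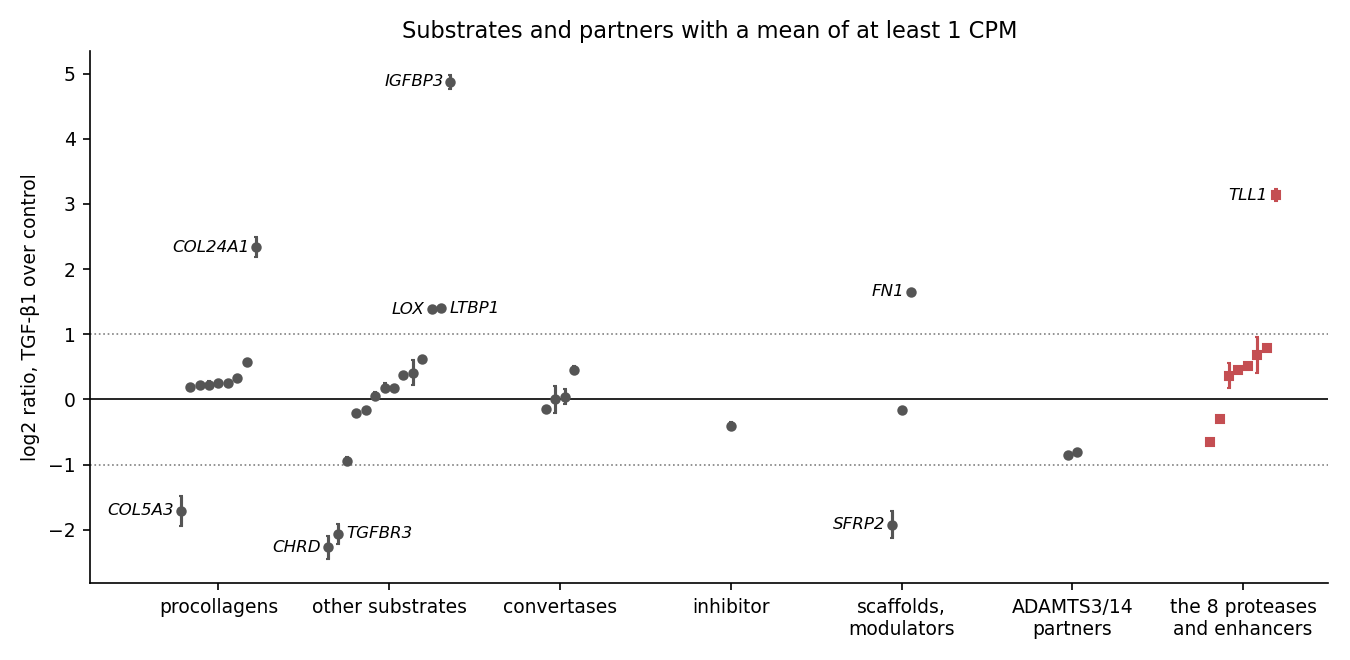
Log2 ratio of TGF-β1 over control for the 33 substrate and partner genes at 1 CPM or more, by list (grey circles), and for the 8 proteases and enhancers (red squares), with exact binomial 95% intervals; dotted lines mark 2-fold. Genes past 2-fold are named: *IGFBP3*, *COL24A1*, *FN1*, *LTBP1*, *LOX* and *TLL1* above, and *CHRD*, *TGFBR3*, *SFRP2* and *COL5A3* below.

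The genes most like *TLL1* across single cells were ranked by the log2 ratio of their CPM in thinned cells with *TLL1* over cells without it, among genes with a symbol and at least 10 CPM over all thinned cells of the library. Cells with *TLL1* count toward that minimum, which therefore favours genes that are high in them. In the TGF-β1 library, 1545 cells were compared with 2968 over 7127 genes, and 0 genes were higher by more than 2-fold. Before thinning, 2188 TGF-β1 and 367 control cells had a *TLL1* UMI, so the cells without *TLL1* included some that had one. The numbers of genes past 2-fold in the libraries are therefore not on equal terms. The 10 genes that led were *SNAP25*, *SPOCK3*, *PLXNA4*, *CDH6*, *PDE3A*, *NLGN1*, *NPFFR2*, *SOX5*, *KCNQ5* and *FAT4*, with log2 ratios from 0.69 down to 0.57. Of these, *PLXNA4*, *CDH6*, *PDE3A* and *FAT4* were below 10 CPM in the cells without *TLL1*, at 8.63 to 9.54 CPM. *SNAP25* had 16.7 CPM with *TLL1* and 10.3 CPM without. *NLGN1*, a cell adhesion molecule, had 26.7 and 17.6 CPM.

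In control, 220 cells with *TLL1* were compared with 3645 over 7199 genes, and 6 genes were more than 2-fold higher: *IL11*, *MED12L*, *STAC*, *SAA1*, *NLGN1* and *MAMDC2*. *MED12L* was below 10 CPM in the cells without *TLL1*, at 9.78 CPM. *TRPM3*, *NOX4*, *CRABP2* and *RNF144B* followed, with log2 ratios from 1.00 down to 0.87. *IL11*, a cytokine of the interleukin-6 family, had 375 CPM in control cells with *TLL1* and 137 CPM in those without, a log2 ratio of 1.46 (1.38 to 1.53). In the TGF-β1 library it had 2127 and 1983 CPM. *NOX4*, an oxidase that forms hydrogen peroxide, had 92.7 and 49.2 CPM in control and 81.0 and 59.3 CPM in the TGF-β1 library. *SAA1*, an acute phase protein, was higher with *TLL1* in control, at 51.1 against 21.8 CPM, and lower with it in the TGF-β1 library, at 4.66 against 9.501 CPM.

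*NLGN1* was the gene among the 10 in both libraries. The ratios rest on 1 library each and on cells of 4 mares that were not told apart.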

How the data were processed

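The authors made the deposited counts, UMI counts per gene and barcode without normalization, with Cell Ranger on the EquCab3.0 genome. The methods name version 7.1.0 and the header of the counts 8.0.1. Whether introns were counted is not given in the sources used here. The study's cell filters were applied here, and its genotype-based removal of doublets was not repeated. No doublets were called or removed. Totals of kept cells were 210497250 control and 219731144 TGF-β1 UMIs. Analyses used Python 3.11.15, numpy 2.4.6, scipy 1.17.1, pandas 2.3.3 and matplotlib 3.10.9. Log2 ratios carry no pseudocount and have exact binomial intervals, levels have exact Poisson intervals, and shares have Clopper-Pearson intervals. Ratios were checked on simulated data. A ratio between the libraries needs more than 3 UMIs in at least 1 of them. Ratios within classes, or by *TLL1*, need more than 3 in each group compared, and in classes also 50 cells.

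The 8 genes and the lists were chosen with earlier results of these data known. Named are all 8 genes, up to 4 genes a list with the largest log2 ratio in either direction, the 10 genes most like *TLL1* in each library, and markers. *LOX*, *BGN*, *LAMA3*, *POSTN*, *A2M* and the meprins were named besides, after their values were seen. The study's edgeR and Seurat analyses were not run here. Alternatives were other cell filters, scalings, CPM and fold limits, and thinning depths.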

Additional observations from a re-analysis of the deposited data

Results flagged for a closer look

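*TLL1* was also present in the barcodes that the filters exclude, which enter no comparison above. The 611 excluded barcodes of the TGF-β1 library held 438 *TLL1* UMIs, or 98.2 CPM (89.2 to 107.9), against 10.0 CPM (7.104 to 13.8) in the 519 excluded control barcodes and 43.8 CPM in the kept TGF-β1 cells. The excluded TGF-β1 barcodes under 20000 UMIs had 121.5 CPM where the mitochondrial share was 4% or more (438 barcodes) and 45.2 CPM where it was less (165 barcodes). The same split in control rests on few UMIs, with 22 UMIs or 16.5 CPM (10.3 to 24.97) at 4% or more and 2 UMIs or 1.53 CPM (0.19 to 5.53) below. The excluded barcodes had 2.01 times the *TLL1* level of the kept cells in control and 2.24 times in the TGF-β1 library. In the same TGF-β1 barcodes, *ADAMTS3* had 198 and 63.7 CPM, *ADAMTS2* 129.9 and 52.7 CPM, *BMP1* 165 and 140 CPM, *PCOLCE2* 65.9 and 76.0 CPM, and *PCOLCE* 153 and 251 CPM, while *TLL2* and *ADAMTS14* had at most 14 UMIs. The value was picked out because it lies in data outside the comparisons and above the control level, and its cause was not tested.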

How the results depend on the processing

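Over 7 alternatives of cell filter and scaling, the log2 ratio of *TLL1* stayed between 3.13 and 3.21, and the directions of all 8 genes held. *PCOLCE* moved by more than its counting interval under a median-of-ratios scaling, to -0.63. At a 1.5-fold limit, 4 of the 8 genes were counted in place of 1, beside 17.0% of all genes. The share of cells with *TLL1* was 3.31% in control and 23.9% in TGF-β1 cells when thinned to 10000 UMIs, and 9.495% and 48.5% without thinning. The ratio of cells with both *TLL1* and *ADAMTS3* ranged from 1.22 to 1.47 in control and from 1.09 to 1.22 in TGF-β1 cells over 4 alternatives of thinning and filter. The count of 9 partner genes past 2-fold held under all 7 filters and scalings. With at least 10 CPM, the median of the scaffolds was 0.74, from 2 genes, in place of -0.17. No paired analysis was possible because the cells, of the same 4 mares in both libraries, were not assigned to mares here. With 1 library a group, no library could be left out. Depth limits *TLL2* and *ADAMTS14*, whose 172 to 522 UMIs give wide intervals.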
